A study of Mus musculus with 37 samples.

Results

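The 10 genes described here encode or govern the enzymes of fatty acid synthesis in liver. Pklr, Acly, Me1, Acaca, Acacb, Fasn, Elovl6 and Scd1 encode enzymes, and Thrsp and Srebf1 encode regulators. They were chosen by symbol from the 55487 genes of the count table, each matched 1 gene, and all 10 were among the 15564 genes with enough counts to test. The smallest count of any of them in any library was 210. Expression was measured by RNA sequencing of liver from mice without a functional Nox4 gene (NOX4-/-, here KO) and from wild-type (WT) mice. The study followed regeneration after partial hepatectomy, in which most of the liver is cut away and the remainder grows back.

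For KO after hepatectomy there were 3 libraries at 6 h, 4 at 24 h, 4 at 48 h and 3 at 7 d, beside 5 sham libraries. For WT after hepatectomy there were 3 libraries at 6 h, 3 at 24 h, 4 at 48 h and 3 at 7 d, beside 5 sham libraries. Each library of liver RNA is called a liver here, and n counts libraries. All sham livers of a genotype form 1 group, whatever the time. KO sham replicates 1 to 5 were taken 24 h, 48 h, 48 h, 72 h and 6 h after the operation. WT sham replicates 1 to 5 were taken 7 d, 48 h, 24 h, 48 h and 6 h after it. The labels mark 23 livers as male and 14 as female. All 6 h hepatectomy livers were male and the other groups held both sexes. Strain, age, feeding state and the way the Nox4 allele was made are not given in the sources used here. The labels list the libraries as separate samples and name no animals, so p-values rest on the spread among libraries, which may be technical.

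De novo lipogenesis turns surplus carbohydrate into fatty acids, and the liver is one of its main sites. Glycolysis delivers pyruvate, citrate carries acetyl units out of the mitochondrion, and malonyl-CoA made from acetyl-CoA is joined into palmitate, which is then lengthened and desaturated. Insulin, acting largely through the transcription factor SREBP-1c, and glucose, acting through ChREBP, switch these genes on after a meal, and fasting switches them off. Liver that regrows after hepatectomy stores fat for a time, much of it drawn from adipose tissue.

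Promoter sequences are shown for Thrsp, Acacb and Fasn. Thrsp is the member whose response differed between the genotypes at 24 h. Acacb is the carboxylase whose level was lower in KO than in WT livers at 24 h, while its difference in response did not pass. Fasn is the gene of the synthase itself. Each window runs from 250 bases before to 50 bases after the RefSeq start, is read 5′ to 3′ on the strand of the gene, and comes from RefSeq on GRCm38.p6. Capitals mark the CCAAT box (CCAAT or its reverse complement ATTGG) and the TATA box (TATAAA).
Thrsp, chr7:97417501-97417800, minus strand: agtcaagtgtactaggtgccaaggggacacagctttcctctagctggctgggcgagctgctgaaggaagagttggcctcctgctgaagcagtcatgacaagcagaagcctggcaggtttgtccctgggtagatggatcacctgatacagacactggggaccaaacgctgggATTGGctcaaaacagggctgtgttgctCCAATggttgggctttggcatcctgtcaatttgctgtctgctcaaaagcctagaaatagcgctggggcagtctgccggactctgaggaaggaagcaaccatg
Acacb, chr5:114165268-114165567, plus strand: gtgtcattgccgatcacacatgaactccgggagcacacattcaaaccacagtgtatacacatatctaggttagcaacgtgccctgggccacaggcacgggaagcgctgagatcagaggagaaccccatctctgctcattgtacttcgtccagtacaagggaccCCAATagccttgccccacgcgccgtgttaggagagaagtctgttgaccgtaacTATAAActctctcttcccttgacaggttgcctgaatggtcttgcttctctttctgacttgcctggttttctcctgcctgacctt
Fasn, chr11:120824498-120824797, minus strand: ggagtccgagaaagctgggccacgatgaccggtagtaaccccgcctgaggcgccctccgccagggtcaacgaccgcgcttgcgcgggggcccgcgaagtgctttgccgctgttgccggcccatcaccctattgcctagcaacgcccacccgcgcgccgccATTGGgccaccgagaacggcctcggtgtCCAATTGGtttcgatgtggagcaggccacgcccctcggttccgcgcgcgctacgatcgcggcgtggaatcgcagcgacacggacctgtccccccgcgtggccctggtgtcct
The Thrsp window held CCAAT at -52 to -48 and ATTGG at -79 to -75, counted from the start. The Fasn window held CCAAT at -62 to -58, overlapped by ATTGG at -59 to -55, and a further ATTGG at -90 to -86. The Acacb window held CCAAT at -87 to -83 and TATAAA at -34 to -29. This Acacb start lies inside the annotated gene, which begins at position 114146535. Windows were at hand for 9 of the 10 genes, some with several starts. Counted by window, a CCAAT box was found in 8 of the 13 windows of these genes, and in 37.4% of 32851 windows of the same length over the genome. The 8 windows belong to 7 of the 9 genes. A TATA box was found in 2 of the 13 windows (13.6% of all windows) and a GC box, GGGCGG, in 4 of the 13 (35.7% of all windows). A sterol regulatory element searched as TCACNCCAC was found in 0 of the 13 (1.24% of all windows), and the E-box CACGTG in 0 of the 13 (7.15% of all windows). Both strands were searched, and the absence of a match says only that these letters are not in this window.

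On GRCm38 with the GENCODE M21 annotation, Acly, Acaca, Fasn and Srebf1 lie on chromosome 11 (Acly 100476353 to 100528000, Acaca 84129672 to 84401651, Fasn 120805846 to 120824547, Srebf1 60199089 to 60222581). Pklr (89136142 to 89146784) and Elovl6 (129532355 to 129638495) lie on chromosome 3. Acacb (114146535 to 114250761) lies on chromosome 5, Me1 (86581371 to 86695953) on chromosome 9 and Scd1 (44394455 to 44407879) on chromosome 19. Thrsp (97412938 to 97417730) lies on chromosome 7, as does Nox4 (87246096 to 87398710), and 10014227 bases separate the 2 genes. Exons of Pklr, Me1, Elovl6 and Srebf1 overlap exons of another gene on the opposite strand, by 711 bases with Hcn3 for Pklr and by 30 to 109 bases for the other 3. Their counts are the less certain for it, since the strand setting of the counting is not given.

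Libraries held 26232544 to 48827025 counts. Nox4 differed by -2.82 on the log2 scale in KO against WT livers, averaged over the 5 stages (SE 0.28, adjusted p = 4.27e-08, edgeR quasi-likelihood test with Benjamini-Hochberg adjustment). Single livers did not all separate by Nox4, given here in CPM, the count scaled by the effective library size. It ranged from 0.153 to 4.98 CPM in KO and from 1.29 to 19.1 CPM in WT sham livers. The genotypes also overlapped at 24 h, 48 h and 7 d. At 6 h they did not, with 1.55 to 3.05 CPM in KO and 7.92 to 23.2 CPM in WT livers. The summed hepatocyte markers (7 of 7 tested, among them Alb and Apoa1) lay between 42480 and 146500 CPM in every library. The adipocyte markers, 7 genes of which several encode products of fat cells, summed to 0.316 to 23.2 CPM, and Lep, which encodes leptin, was at 0 in 30 of the 37 libraries. In the WT 24 h group, replicate 3 stood apart with 8.93% of its counts from mitochondrial genes, against at most 7.27% in the other 36 libraries.

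Compared per kilobase of transcript (RPKM), the 10 genes spanned a wide range in sham livers. Scd1, which encodes the desaturase that makes oleate, averaged 2126 ± 1534 RPKM in KO and 1827 ± 1075 RPKM in WT sham livers (SD, n = 5 each). Thrsp, which encodes the small acidic protein Spot14 induced by thyroid hormone and carbohydrate, followed with 452 ± 164 RPKM in KO and 407 ± 190.5 RPKM in WT sham livers. Pklr, Fasn, Acly and Me1 averaged between 48.1 and 138.5 RPKM in the 2 sham groups, Srebf1 31.8 RPKM in KO and 67.9 RPKM in WT, and Elovl6 25.5 RPKM in KO and 19.8 RPKM in WT. The carboxylases were lowest, Acacb with 13.7 ± 2.03 RPKM in KO and 17.8 ± 4.25 RPKM in WT, and Acaca with 7.13 ± 2.69 RPKM in KO and 9.34 ± 4.06 RPKM in WT. Neighbours in the middle of this order did not differ beyond their spread. Within a sham group, Acacb varied least, by 1.44 times between the lowest and highest KO liver and by 1.96 times in WT. Scd1 varied by 7.66 times in KO and 21.3 times in WT, and Fasn by 8.22 times in KO and 13.9 times in WT.

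**Figure D1:**
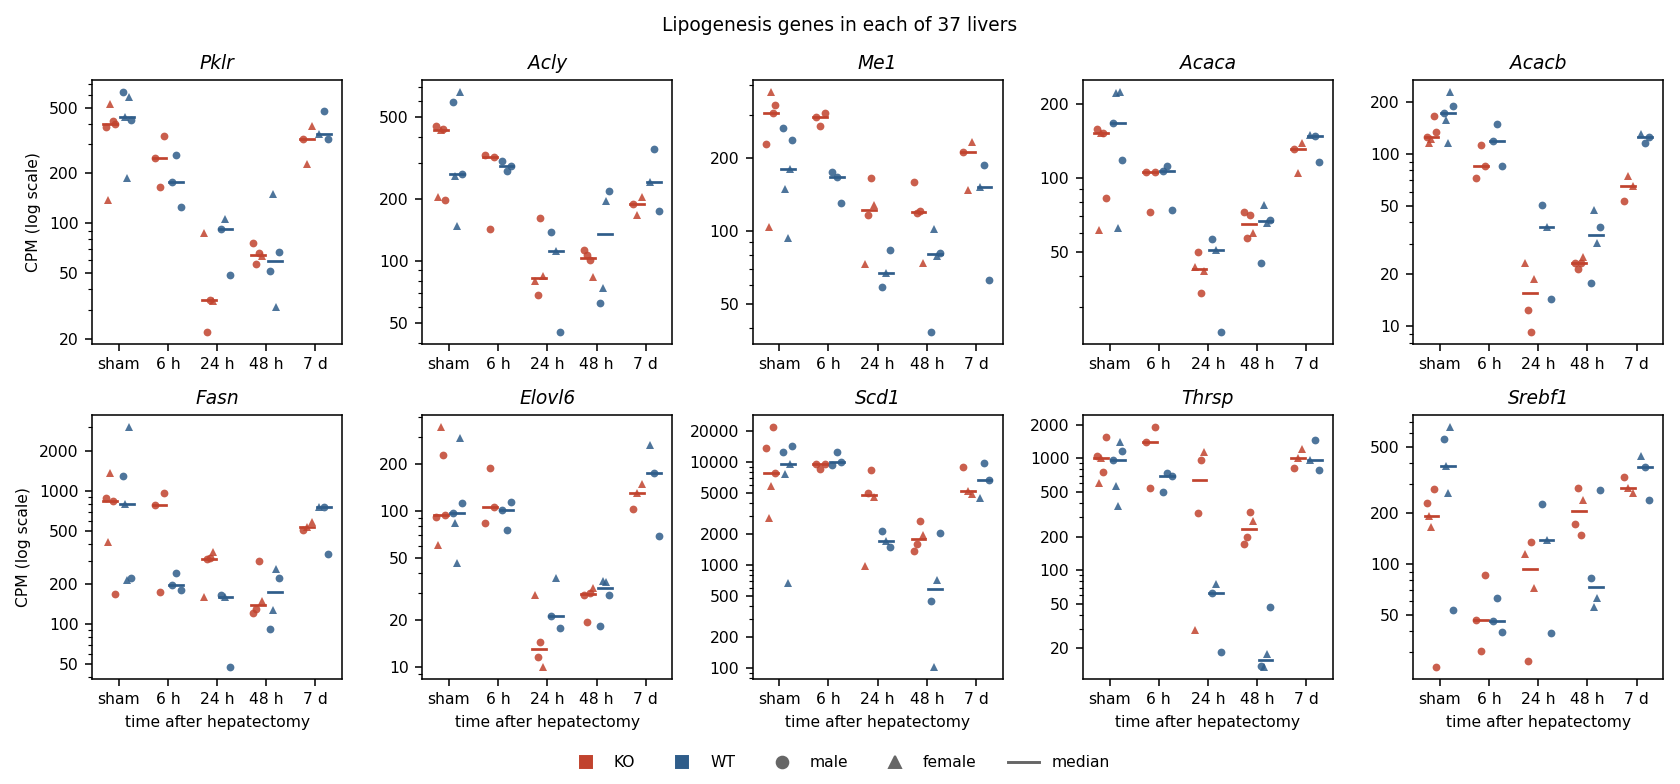
CPM (log axis) of each of the 10 genes in each of 37 livers, sham and then 6 h, 24 h, 48 h and 7 d after hepatectomy, KO left of WT at each stage, with circles for males, triangles for females and a line at the group median. Most genes sit lowest at 24 h and 48 h, and Thrsp at 48 h separates KO livers (171 to 333 CPM) from WT livers (13.8 to 47.3 CPM).

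At 24 h and 48 h most of the genes were lower than in sham livers of the same genotype, in both genotypes. In KO livers 6 of the 10 fell at 24 h and 6 fell at 48 h. In WT livers 7 fell at 24 h and 9 at 48 h. None rose in any of these 4 comparisons. Over all 15564 genes tested, the share called lower was 12% in KO at 24 h, 0.7% in KO at 48 h, 0.559% in WT at 24 h and 3.62% in WT at 48 h. The median log2 change of the 10 genes was -1.45 in KO at 24 h, -2.01 in KO at 48 h, -2.25 in WT at 24 h and -2.22 in WT at 48 h, while the medians of all genes lay between -0.01 and 0.07. The genotypes are set side by side here, and the test of their difference is given further on. In whole liver RNA, fewer cells of a type and less RNA per cell cannot be told apart. The summed hepatocyte markers ranged from 89790 to 146500 CPM in KO livers at 24 h, against 103500 to 133800 CPM in KO sham livers. They ranged from 42480 to 84520 CPM in WT livers at 24 h, against 85440 to 141900 CPM in WT sham livers, without overlap. At 48 h they ranged from 71250 to 105000 CPM in KO livers and from 83160 to 116800 CPM in WT livers. By gene, 0 of the 7 hepatocyte markers passed in KO at 24 h or 48 h or in WT at 24 h, where 0, 1 and 4 had an unadjusted p under 0.05, and 3 fell in WT at 48 h (Serpina1c, Cps1 and Cyp2e1). Of 6 Kupffer cell markers, 5 fell in KO at 24 h and 1 rose in WT at 48 h. Of 5 endothelial markers, 3 fell and 1 rose in KO at 24 h and 1 fell in WT at 48 h. The summed Kupffer markers ranged from 46.6 to 235 CPM in KO livers at 24 h, against 183 to 282 CPM in KO sham livers, and the summed endothelial markers from 39.4 to 61.6 CPM, against 52.4 to 105 CPM. Also in KO at 24 h, 1 of 4 cholangiocyte markers rose (Sox9) and 1 of 6 adipocyte markers tested fell (Adrb3). The part of these markers in the fall was not tested.

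The entry steps fell in both genotypes. Pklr encodes liver pyruvate kinase, the last step of glycolysis. It stood at 87.7, 22, 34.3 and 34 CPM in KO livers at 24 h and 76.4, 56.3, 65.8 and 63 CPM at 48 h, against 380.2, 138, 527, 415 and 400 CPM in KO sham livers. In WT livers it stood at 92, 106 and 48.4 CPM at 24 h, then 51.3, 149.8, 31 and 66.5 CPM at 48 h, against 621, 437, 187, 577 and 419 CPM in WT sham livers. Every liver at 24 h and 48 h lay below every sham liver of its genotype. The log2 change was -3.11 ± 0.46 (SE) in KO at 24 h (adjusted p = 3.67e-05) and -2.49 ± 0.44 at 48 h (adjusted p = 0.00185). In WT it was -2.43 ± 0.49 at 24 h (adjusted p = 0.0186) and -2.60 ± 0.44 at 48 h (adjusted p = 6.57e-04).

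Acly encodes ATP citrate lyase, which splits citrate into cytosolic acetyl-CoA. It averaged 98.9 ± 42.4 CPM in KO livers at 24 h (SD, n = 4), 101 ± 12.6 CPM in those at 48 h (n = 4), and 346 ± 132 CPM in KO sham livers (n = 5). In WT livers it averaged 98.7 ± 48 CPM at 24 h (n = 3) and 137 ± 80.7 CPM at 48 h (n = 4), against 385 ± 226 CPM in WT sham livers (n = 5). It fell at both times in KO (log2 change -1.80 ± 0.43, adjusted p = 0.00264, and -1.80 ± 0.43, adjusted p = 0.0141). It also fell at both times in WT (log2 change -1.99 ± 0.48, adjusted p = 0.0388, and -1.50 ± 0.42, adjusted p = 0.0239). WT livers overlapped with WT sham livers at 48 h, where 2 of the 4 stood at 196 and 218 CPM.

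Acaca encodes acetyl-CoA carboxylase 1, the cytosolic enzyme that makes malonyl-CoA for synthesis. It ranged from 34 to 49.9 CPM in KO livers at 24 h and 57.1 to 72.8 CPM at 48 h, against 61.7 to 159 CPM in KO sham livers. It ranged from 23.7 to 56.5 CPM in WT livers at 24 h and 45 to 77.6 CPM at 48 h, against 62.9 to 224 CPM in WT sham livers. The change passed the test in KO at 24 h (-1.53 ± 0.31 log2, adjusted p = 6.69e-04) and in WT at both times (-1.85 ± 0.35, adjusted p = 0.0127, and -1.31 ± 0.31, adjusted p = 0.00683). In KO at 48 h it was -0.90 ± 0.30 (adjusted p = 0.115), short of the threshold of 0.05.

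Acacb encodes acetyl-CoA carboxylase 2, the mitochondrial form whose malonyl-CoA restrains fatty acid oxidation. Its values were 23.2, 12.4, 9.32 and 18.9 CPM in KO livers at 24 h and 23.2, 21.5, 23.3 and 25.1 CPM at 48 h, against 125, 115, 122, 165 and 133 CPM in KO sham livers. In WT livers they were 50.4, 37.8 and 14.5 CPM at 24 h, then 17.7, 47.3, 30.4 and 37.4 CPM at 48 h, against 171, 156, 116, 227 and 189 CPM in WT sham livers. No liver at 24 h or 48 h reached the range of its sham group. The KO mean at 24 h was 12.1% of the KO sham mean, and the WT mean at 24 h was 19.9% of the WT sham mean. The log2 change was -3.12 ± 0.31 in KO at 24 h (adjusted p = 4.22e-07) and -2.48 ± 0.30 at 48 h (adjusted p = 3.01e-05). In WT it was -2.28 ± 0.33 at 24 h (adjusted p = 0.00155) and -2.37 ± 0.29 at 48 h (adjusted p = 1.61e-05).

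Fasn encodes fatty acid synthase, which assembles palmitate from malonyl-CoA. It stood at 161, 308, 315 and 350.5 CPM in KO livers at 24 h and 122, 129, 298 and 149.8 CPM at 48 h, against 892, 413, 1376, 838 and 167 CPM in KO sham livers. In WT livers it stood at 167, 161 and 48.1 CPM at 24 h, then 91.9, 128, 259 and 222 CPM at 48 h, against 1301, 797, 216, 3012 and 224 CPM in WT sham livers. The sham livers taken at 6 h were the lowest KO sham liver and close to the lowest WT sham liver. Fasn fell in WT at 24 h (log2 change -3.05 ± 0.74, adjusted p = 0.0388) and at 48 h (-2.61 ± 0.64, adjusted p = 0.00969). In KO the change was -1.37 ± 0.61 at 24 h (adjusted p = 0.0877) and -2.00 ± 0.63 at 48 h (adjusted p = 0.0833), neither past the threshold.

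Elovl6 encodes the elongase that lengthens palmitate to stearate. Its KO mean at 24 h, 16.3 ± 8.64 CPM (SD, n = 4), was 9.94% of the KO sham mean of 164 ± 120.4 CPM (n = 5). Its WT mean at 24 h, 25.5 ± 10.5 CPM (n = 3), was 20.0% of the WT sham mean of 127 ± 97.6 CPM (n = 5). The livers at 24 h and 48 h lay below all sham livers of their genotype. The log2 change was -3.39 ± 0.48 in KO at 24 h (adjusted p = 2.93e-05), -2.45 ± 0.46 in KO at 48 h (adjusted p = 0.00234), -2.21 ± 0.51 in WT at 24 h (adjusted p = 0.0336) and -2.06 ± 0.45 in WT at 48 h (adjusted p = 0.00443).

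Scd1 stood at 982, 5059, 8447 and 4582 CPM in KO livers at 24 h and 1385, 1616, 2685 and 1951 CPM at 48 h, against 13590, 2851, 5851, 21850 and 7850 CPM in KO sham livers. In WT livers it stood at 2151, 1732 and 1494 CPM at 24 h, then 452, 103, 716 and 2063 CPM at 48 h, against 12460, 7716, 667, 9644 and 14210 CPM in WT sham livers. It fell at 48 h in KO (log2 change -2.34 ± 0.59, adjusted p = 0.0214) and in WT (-3.60 ± 0.63, adjusted p = 8.10e-04). At 24 h the change was -0.98 ± 0.56 in KO (adjusted p = 0.188) and -2.40 ± 0.66 in WT (adjusted p = 0.0671). The WT sham liver at 667 CPM lay below all 3 WT livers at 24 h. It was replicate 3, the only WT sham liver taken at 24 h. This liver was also the lowest WT sham liver for Pklr, Acly, Me1, Acaca, Acacb, Fasn, Elovl6 and Thrsp, but not for Srebf1. For all of these genes it still lay above all 3 WT livers at 24 h. The gap was narrow for Acly (147.2 against at most 138.5 CPM) and wide for Thrsp (376.5 against at most 75.4 CPM). The WT change at 24 h against this liver alone was not tested.

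Me1 encodes cytosolic malic enzyme, a source of the NADPH that synthesis consumes. It stood at 73, 117, 165 and 128 CPM in KO livers at 24 h and 159, 119, 121 and 74 CPM at 48 h, against 229, 104, 373, 307 and 330.4 CPM in KO sham livers. In WT livers it stood at 59.1, 67.2 and 83.8 CPM at 24 h, then 38.6, 102, 79 and 81.3 CPM at 48 h, against 265, 149, 93.8, 179.9 and 237 CPM in WT sham livers. Its changes were the smallest of the called ones at 48 h, -1.24 ± 0.34 log2 in KO (adjusted p = 0.038) and -1.26 ± 0.34 in WT (adjusted p = 0.0171). At 24 h it fell in KO (-1.14 ± 0.34, adjusted p = 0.0124), and in WT the change of -1.44 ± 0.38 had an adjusted p of 0.0567.

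The WT calls at 24 h rest on replicate 3, the library with the high mitochondrial share, which was the lowest of the 3 WT livers at that time for 9 of the 10 genes, all but Me1. Replicate 3 also had the lowest summed hepatocyte markers of all 37 libraries, 42480 CPM, against 72410 and 84520 CPM in replicates 1 and 2. Its summed adipocyte markers were 14.6 CPM, against 1.51 and 0.528 CPM. The part of these values in the WT calls was not tested. Without replicate 3, 0 of the 10 genes passed in WT at 24 h, as did 0 genes of the whole table. The WT changes of all 10 genes kept their sign without it, with Acacb at -1.92 ± 0.34 with an adjusted p of 0.0703 and Pklr at -2.17 ± 0.58 with an adjusted p of 0.281. Without WT sham replicate 1, or without WT sham replicate 4, 4 of the 10 passed. With the compared groups fitted alone, 0 passed in WT at 24 h and 3 in WT at 48 h. The counts at 48 h and in KO moved less, between 7 and 10 genes in WT at 48 h, 6 and 7 in KO at 24 h, and 4 and 7 in KO at 48 h, over all 37 single libraries left out.

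**Figure D2:**
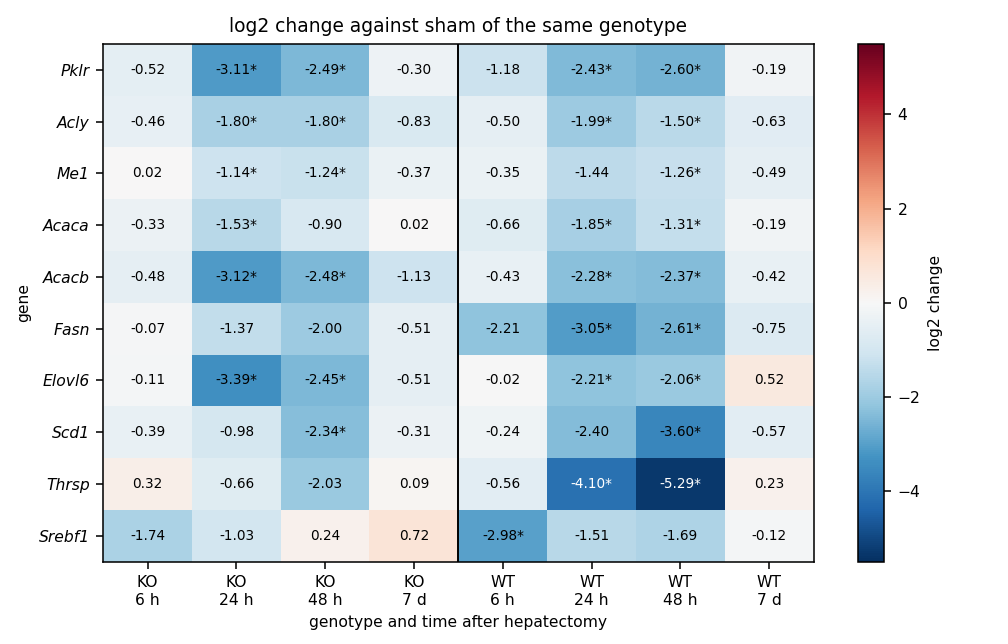
Log2 change of each of the 10 genes against sham livers of the same genotype (KO columns left, WT columns right, 6 h to 7 d within each), from edgeR. The value is printed in each cell, with an asterisk where the adjusted p was under 0.05. The deepest falls are those of Thrsp in WT, -4.10 at 24 h and -5.29 at 48 h, beside -0.66 and -2.03 in KO.

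Thrsp responded differently in the 2 genotypes at 24 h. It stood at 29.4, 326, 957 and 1142 CPM in KO livers at 24 h, against 62.4, 75.4 and 18.6 CPM in WT livers at 24 h. At 48 h it stood at 170.5, 198, 333 and 273 CPM in KO livers, against 14, 13.8, 17.7 and 47.3 CPM in WT livers. KO sham livers held 1042, 605, 1001, 756 and 1546 CPM, against 958, 570, 376, 1391 and 1162 CPM in WT sham livers. The 24 h groups overlapped through the single low KO liver, replicate 1, and 3 of the 4 KO livers lay above all WT livers. The 48 h groups did not overlap, nor did either WT group with WT sham livers. The sham groups overlapped broadly.

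The KO mean of Thrsp at 48 h was 10.5 times the WT mean, 244 ± 73.8 CPM against 23.2 ± 16.2 CPM (SD, n = 4 each). As a share of sham livers, Thrsp at 48 h kept 24.6% in KO and 2.6% in WT. KO against WT, the log2 difference was 3.56 ± 0.74 at 24 h (adjusted p = 0.00301) and 3.38 ± 0.66 at 48 h (adjusted p = 0.0106), and 0.12 ± 0.54 in sham livers (adjusted p = 0.959). The interaction, the KO change from sham minus the WT change from sham, was 3.44 ± 0.88 log2 at 24 h (adjusted p = 0.0186). At 48 h it was 3.27 ± 0.82, with an unadjusted p of 4.02e-04 and an adjusted p of 0.176, short of the threshold. Within WT, Thrsp fell, with log2 changes of -4.10 ± 0.76 at 24 h (adjusted p = 0.0127) and -5.29 ± 0.71 at 48 h (adjusted p = 4.48e-05). Within KO, the change was -0.66 ± 0.57 at 24 h (adjusted p = 0.399) and -2.03 ± 0.60 at 48 h (adjusted p = 0.0612).

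Some of these Thrsp calls turn on single libraries. The difference between the genotypes at 24 h passed with any of the 37 libraries left out, and without WT 24 h replicate 3 it was 3.04 ± 0.83 with an adjusted p of 0.0232. The interaction at 24 h was 2.95 ± 0.94 with an adjusted p of 0.0974 without that library, and it was also lost without KO 24 h replicate 4. The interaction at 48 h passed without KO 24 h replicate 1, at 3.25 ± 0.64 with an adjusted p of 0.0355. The difference at 48 h without WT 48 h replicate 3 was 3.30 ± 0.74 with an adjusted p of 0.0549. At 24 h the summed hepatocyte markers also lay higher in KO livers, without overlap, at 89790 to 146500 CPM against 42480 to 84520 CPM in WT livers. At 48 h they overlapped, 71250 to 105000 CPM in KO livers against 83160 to 116800 CPM in WT livers. The summed Kupffer cell markers were 46.6 to 235 CPM in KO livers at 24 h against 154 to 370.2 CPM in WT livers, and 3 of the 6 were called lower in KO. The summed endothelial markers were 39.4 to 61.6 CPM in KO livers at 24 h against 60.4 to 127 CPM in WT livers, and 4 of the 5 were called lower. The summed cholangiocyte markers were 16.7 to 157 CPM in KO livers against 14.8 to 54.4 CPM in WT livers, and 2 of the 4 were called higher. Of the other lists at 24 h, 1 hepatocyte marker (Alb) was called higher, and 1 adipocyte (Adrb3) and 1 stellate marker (Des) lower. In the interaction at 24 h, 3 of the 4 cholangiocyte markers were called higher (Krt19, Epcam and Sox9), and 1 endothelial (Clec4g) and 1 adipocyte marker (Adrb3) lower. The part of these values in the Thrsp result was not tested. Thrsp and Nox4 lie 10014227 bases apart on chromosome 7, and neither strain nor the making of the Nox4 allele is given. The part of this nearness in the Thrsp result was also not tested. The call at 24 h was lost when the compared groups were fitted alone (adjusted p = 0.266), and that at 48 h in male libraries alone (adjusted p = 0.243).

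**Figure D3:**
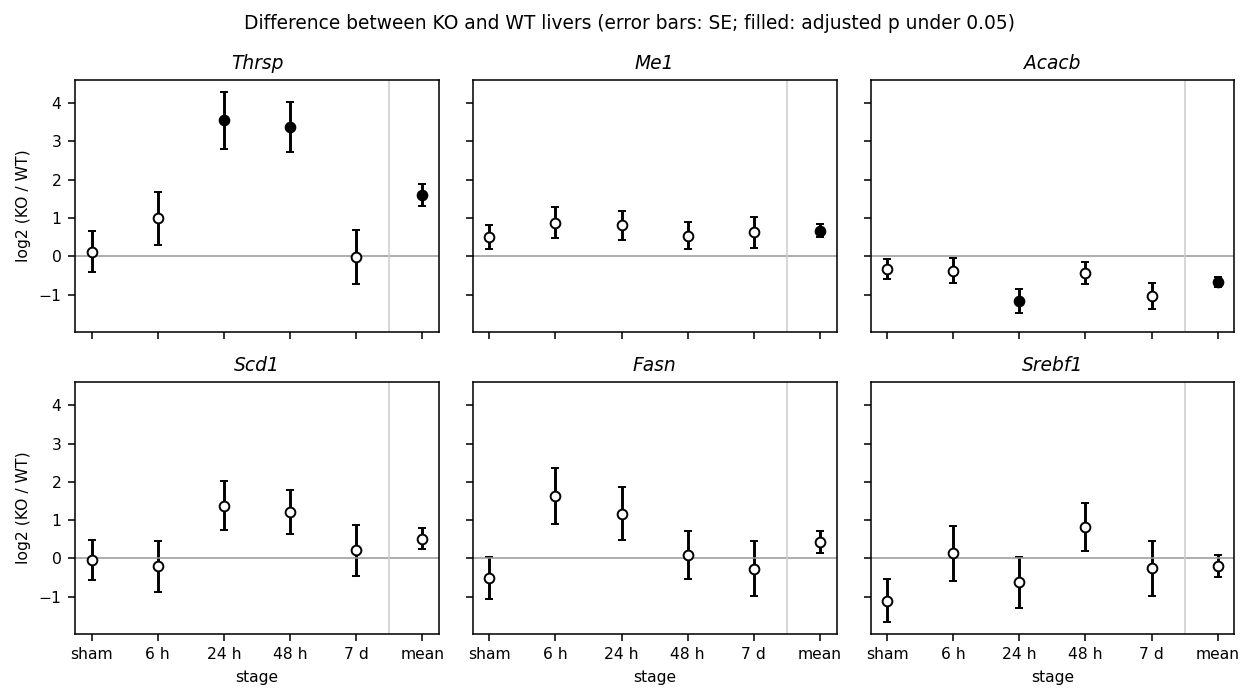
Log2 difference, KO minus WT, of Thrsp, Me1, Acacb, Scd1, Fasn and Srebf1 at each stage and averaged over the stages (mean). Bars are 1 SE, and points are filled where the adjusted p was under 0.05. Thrsp is filled at 24 h (3.56) and 48 h (3.38) and lies near 0 in sham livers and at 7 d, and Acacb is filled at 24 h (-1.17). At the mean, Thrsp (1.60), Me1 (0.67) and Acacb (-0.67) are filled.

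Besides Thrsp, 1 gene differed between the genotypes at a single stage, so that at 24 h 1 of the 10 was higher in KO and 1 lower. Of all genes, 11.1% were called higher and 7.5% lower at 24 h, so these counts lie near the background. At 48 h 1 of the 10 was higher in KO (Thrsp), with 0.161% of all genes called higher. Acacb was the gene lower in KO at 24 h, 15.9 ± 6.25 CPM (SD, n = 4) against 34.2 ± 18.2 CPM in WT livers (n = 3). Its log2 difference was -1.17 ± 0.31 (adjusted p = 0.0124), and the 24 h groups overlapped. The interaction for Acacb at 24 h was -0.84 ± 0.41 (adjusted p = 0.188). Without WT 24 h replicate 1, or without KO 24 h replicate 3, the difference did not pass. Without KO 24 h replicate 1, 4 of the 10 passed, with Pklr at -1.45 ± 0.47 with an adjusted p of 0.0172 and Scd1 at 1.68 ± 0.65 with an adjusted p of 0.0462 joining Thrsp and Acacb. The share of all genes called without that library is not given here, so this count cannot be set against its background.

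Averaged with equal weight over the 5 stages, 2 of the 10 genes were higher and 1 was lower in KO, against 2.02% of all genes called higher and 0.694% called lower. Thrsp differed by 1.60 ± 0.29 log2 (adjusted p = 0.00134), Me1 by 0.67 ± 0.16 (adjusted p = 0.0224) and Acacb by -0.67 ± 0.14 (adjusted p = 0.00518). Me1 was higher in KO in the mean at all 5 stages and passed at no single one. At 6 h its KO livers held 295, 270.5 and 306 CPM, against 176, 167 and 130.3 CPM in WT livers, without overlap (log2 difference 0.88 ± 0.40, adjusted p = 0.437). Without KO 7 d replicate 3, the average difference of Me1 no longer passed. Acacb was lower in KO in the mean at all 5 stages, with log2 differences of -0.33 in sham livers, -0.38 at 6 h, -1.17 at 24 h, -0.44 at 48 h and -1.03 at 7 d.

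In sham livers and at 6 h and 7 d, 0 of the 10 genes passed between the genotypes in edgeR, and DESeq2 also called 0 at each. The shares of all genes called were 0.276% in sham livers, 0.116% at 6 h and 0.045% at 7 d. At an unadjusted p under 0.05 there were 0 of the 10 in sham livers, 2 at 6 h and 1 at 7 d. The interactions gave 0 of the 10 genes at 6 h, 48 h and 7 d, with 0% of all genes called at each. At an unadjusted p under 0.05 these were 1 at 6 h, 2 at 48 h and 0 at 7 d, and DESeq2 called 0, 1 and 0. At 24 h the interaction was called for 1 of the 10, Thrsp, with 5.52% of all genes called higher.

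Srebf1, the gene of SREBP-1, which activates most of the enzyme genes above, followed another course. It stood at 46.4, 30.6 and 85.9 CPM in KO livers at 6 h, against 232, 194, 166, 278 and 24.6 CPM in KO sham livers. In WT livers at 6 h it stood at 46.1, 62.5 and 39.2 CPM, against 556, 385, 266, 652 and 53.2 CPM in WT sham livers. In each sham group the lowest value is that of replicate 5, the liver taken 6 h after the sham operation. Its fall in WT at 6 h, -2.98 ± 0.76 log2 (adjusted p = 0.0155), was the single call among the 10 genes at that time, with 3.7% of all genes called lower. In KO at 6 h the log2 change was -1.74 ± 0.70 (adjusted p = 0.133). There 0 of the 10 passed in edgeR and 0 in DESeq2, with 6.62% of all genes called and 1 of the 10 at an unadjusted p under 0.05. The WT call was lost without WT sham replicate 1, WT 6 h replicate 1 or WT 6 h replicate 3.

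Set against sham livers of the same hour, Srebf1 showed no change after hepatectomy that passed the test. This comparison was added after the data were seen and has 2 sham livers at 6 h, 1 of each genotype. The 6 h sham livers held 24.6 CPM in KO and 53.2 CPM in WT, while the other 8 sham livers held 166 to 652 CPM. The 6 h sham livers differed from the other 8 by -3.31 ± 0.71 log2 for Srebf1 (adjusted p = 0.00577) and by -2.45 ± 0.75 for Fasn (adjusted p = 0.056). Srebf1 was thus the single called gene of the 10, with 1.6% of all genes called lower. The 6 h hepatectomy livers differed from the 6 h sham livers by 0.50 ± 0.58 log2 for Srebf1 (adjusted p = 0.837) and by 0.89 ± 0.67 for Fasn (adjusted p = 0.708). None of the 10 genes passed in that comparison, in which 0.131% of all genes were called. Against the 6 h sham liver of its own genotype, a single library whose spread is assumed like that of the other groups, the Srebf1 change at 6 h was 1.11 ± 0.86 in KO (adjusted p = 0.838) and -0.11 ± 0.80 in WT (adjusted p = 1). Time of day and feeding were not given, and the hour after the operation and the state of the animal cannot be told apart.

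**Figure D4:**
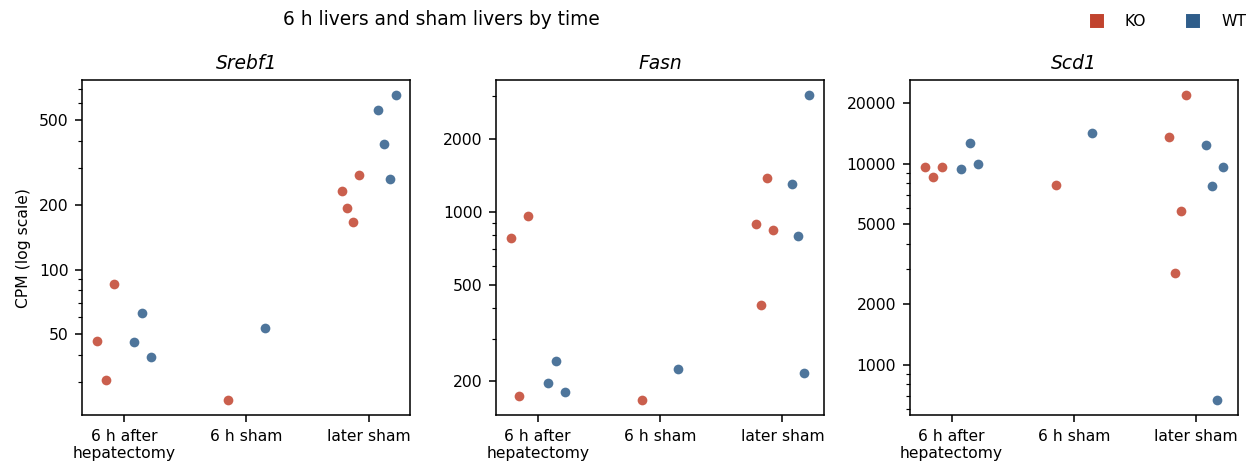
CPM (log axis) of Srebf1, Fasn and Scd1 in 6 h hepatectomy livers, the 6 h sham livers and the sham livers taken at later times, KO in red and WT in blue. Both 6 h sham livers lie below all later sham livers for Srebf1 (24.6 and 53.2 CPM), at the level of the 6 h hepatectomy livers.

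At the later stages Srebf1 stood at 115, 26.4, 136 and 72.4 CPM in KO and 227, 139 and 39 CPM in WT livers at 24 h. At 48 h it stood at 174, 285, 149 and 240 CPM in KO and 83.2, 55.8, 62.6 and 276 CPM in WT livers. Of the 4 KO livers at 48 h, 3 lay within the range of KO sham livers (log2 change 0.24 ± 0.59, adjusted p = 0.936), while 3 of the 4 WT livers at 48 h lay below all WT sham livers but the 6 h one. The WT log2 change was -1.69 ± 0.63 (adjusted p = 0.0933). The interaction at 48 h was 1.93 ± 0.85 (adjusted p = 0.583) and did not pass. In the main edgeR fit Srebf1 mRNA was not called in any KO comparison with sham. Its log2 change in KO at 24 h was -1.03 ± 0.60 (adjusted p = 0.199). Over the other settings tried, its adjusted p ranged from 8.86e-04 to 0.428 in KO at 24 h. In KO at 6 h that range was 1.25e-06 to 0.328. The part of Srebf1 mRNA in the fall of the enzyme genes was not tested.

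At 7 d 0 of the 10 genes passed against sham livers in KO or in WT, by edgeR or by DESeq2, with 0% of all genes called in KO and 0% in WT. At an unadjusted p under 0.05 there was 1 gene in KO and 0 in WT. That gene was Acacb, which held 53.3, 73.8 and 64.8 CPM in KO livers at 7 d, below all 5 KO sham livers (115 to 165 CPM). WT livers at 7 d held 129.9, 116 and 125 CPM, against 116 to 227 CPM in WT sham livers. The KO mean was 48.4% of the KO sham mean and 51.7% of the WT mean at 7 d. The log2 change in KO was -1.13 ± 0.31, with an unadjusted p of 0.00117 and an adjusted p of 0.979. The difference between the genotypes at 7 d was -1.03 ± 0.34 (unadjusted p = 0.00491, adjusted p = 1). Thrsp held 812, 1005 and 1200 CPM in KO and 973, 1471 and 785 CPM in WT livers at 7 d, within reach of the sham levels.

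Between the sexes 0 of the 10 genes passed in edgeR or DESeq2, with 3.59% of all genes called, and 2 had an unadjusted p under 0.05. Scd1 differed by 1.01 ± 0.31 log2, males against females (adjusted p = 0.0613), and Elovl6 by -0.60 ± 0.23 (adjusted p = 0.188).

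Neighbouring genes of the pathway were counted from lists. The counts stand against 12% of all genes called lower and 15.9% called higher in KO at 24 h, and 3.62% lower and 4.68% higher in WT at 48 h. Of 7 genes that supply carbon and NADPH, 4 fell in KO at 24 h, 2 in KO at 48 h, 2 in WT at 24 h and 3 in WT at 48 h, and none rose. Acss2, the cytosolic enzyme that activates acetate, fell in all 4, with log2 changes of -3.00 and -2.07 in KO and -2.37 and -2.52 in WT. Khk, ketohexokinase of fructose breakdown, fell at 48 h in KO (-1.43) and WT (-2.07). Of 7 elongases and desaturases outside the 10, 3 fell in KO at 24 h (Elovl2, Fads1 and Fads2, with log2 changes of -1.11, -1.01 and -1.24), 1 in KO at 48 h (Elovl5, -1.42), and 0 passed in WT, where 3 at 24 h and 1 at 48 h had an unadjusted p under 0.05. Whether the genotypes differ in these was tested by the interaction, in which 0 of the 7 passed at 24 h or 48 h. At an unadjusted p under 0.05 there were 0 at 24 h and 1 at 48 h.

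Of 8 genes that assemble triglyceride, 2 fell and 1 rose in KO at 24 h (all genes, 12% lower and 15.9% higher), 0 passed in KO at 48 h, 1 fell in WT at 24 h and 2 fell in WT at 48 h. In KO at 48 h, 2 had an unadjusted p under 0.05. Pnpla3, a lipid droplet protein that follows SREBP-1c and carbohydrate, fell, with log2 changes of -2.13 in KO at 24 h, -4.12 in WT at 24 h and -3.25 in WT at 48 h. Dgat2 and Dgat1 encode the 2 enzymes of the last step of triglyceride synthesis. In KO at 24 h Dgat2 fell (-1.18) and Dgat1 rose (0.98). Against WT at 24 h, KO livers had higher Dgat1 (1.36 ± 0.27, adjusted p = 0.00214) and lower Dgat2 (-0.94 ± 0.30, adjusted p = 0.0264). The interaction at 24 h passed for Dgat1 (1.53 ± 0.34, adjusted p = 0.00986).

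Of 12 further regulators, 2 fell and 1 rose in KO at 24 h, near those same shares of all genes, 0 passed in KO at 48 h or WT at 24 h, and 1 fell and 1 rose in WT at 48 h. At an unadjusted p under 0.05 there were 0 in KO at 48 h and 3 in WT at 24 h. Mlxipl, the gene of ChREBP, fell in KO at 24 h (-1.71 ± 0.36, adjusted p = 9.87e-04). Mid1ip1, a relative of Thrsp whose product binds acetyl-CoA carboxylase, fell in KO at 24 h (-2.39) and in WT at 6 h (-3.02). Insig2, whose product holds SREBP precursors in the endoplasmic reticulum, rose in KO at 6 h (2.78) and 24 h (2.96) and in WT at 6 h (2.40) and 48 h (2.35). At 24 h it was higher in KO than in WT (2.54 ± 0.63, adjusted p = 0.00823). Ppargc1b, a coactivator of SREBP, was higher in KO than in WT at 24 h (1.61), and its interaction passed (2.41 ± 0.73, adjusted p = 0.0378). At 6 h 1 of the 12 rose and 0 fell in KO, while 1 rose and 2 fell in WT. Of all 15564 genes, 640 rose and 390 fell in KO at 6 h, and 647 rose and 576 fell in WT. These 6 h changes are against sham livers of all times, and those against 6 h sham livers alone are not given here.

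Of 10 genes that rise on fasting, 2 rose and 1 fell in KO at 24 h, again near the shares of all genes called, 0 passed in KO at 48 h, 0 passed in WT at 24 h and 3 rose in WT at 48 h. At an unadjusted p under 0.05 there were 2 in KO at 48 h and 2 in WT at 24 h. Pdk4, the kinase that shuts off pyruvate oxidation, rose in KO at 6 h (5.64 log2) and 24 h (6.16) and in WT at 6 h (7.68) and 48 h (4.84). Fgf21 (4.47) and Cyp4a14 (4.00), both targets of the fatty acid sensor PPARα, were the other 2 that rose in WT at 48 h. G6pc, the last enzyme of glucose output, fell in KO at 24 h (-2.33). At 6 h 2 of the 10 rose in KO and 2 in WT, with 640 and 647 of all 15564 genes called higher. The 6 h changes are against sham livers of all times. The 6 h sham liver had the highest sum of these genes in each sham group, 7627 CPM in KO and 10110 CPM in WT. The 6 h hepatectomy livers summed to 7502 to 9205 CPM in KO and 7999 to 9135 CPM in WT. Changes of these genes against 6 h sham livers alone are not given here. In the interaction at 48 h 0 of these 10 genes passed, and 3 had an unadjusted p under 0.05. All 10 were negative there, with a median of -1.43 log2, against -0.05 over all genes. In KO against WT at 48 h all 10 were also negative (median -0.84), and 0 passed. Their sum at 48 h was 2945 to 4820 CPM in KO and 2283 to 9228 CPM in WT livers. The part of these values in the Thrsp result at 48 h was not tested.

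The 10 genes differed in how closely each followed the others. Each gene's log2(CPM + 1) was standardized over the 37 livers, and its mean absolute difference from the mean of the other 9 was taken. This distance was smallest for Acaca (0.345 SD), Acly (0.36 SD) and Pklr (0.386 SD). It was larger for Elovl6 (0.432 SD), Fasn (0.464 SD), Acacb (0.53 SD), Thrsp (0.545 SD), Scd1 (0.562 SD) and Me1 (0.63 SD), and largest for Srebf1 (0.933 SD). The median over 8534 genes with a mean of at least 5 CPM was 1.15 SD. The closest pair was Pklr and Acacb (0.354 SD) and the farthest was Me1 and Srebf1 (1.18 SD). The livers share stages and library scaling, so these distances are a description.

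By the same measure the 6 genes outside the 10 that lay closest to their mean profile were Acss2 (0.385 SD), Cyb5r3 (0.388 SD), Pygl (0.414 SD), Aacs (0.434 SD), Aspg (0.435 SD) and Pdk1 (0.444 SD). Acss2 and Aacs were also on the list of carbon supply. Cyb5r3 encodes a cytochrome b5 reductase, Pygl the liver glycogen phosphorylase, and Pdk1 a pyruvate dehydrogenase kinase. The 4 closest to the mirror image of the profile were AI506816 (0.491 SD), Dnajc10 (0.495 SD), Tuba8 (0.575 SD) and Rab11fip4 (0.582 SD). With a pseudocount of 0.1 the same 10 genes were found.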

How the data were processed

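RNA sequencing libraries were made from total liver RNA with a stranded mRNA kit, per the labels' protocols. The deposited table holds whole numbers per gene, taken here to be expected counts rounded by the authors, since the submitters' processing notes name STAR 2.5.3a, RSEM 1.3.0 and the genome GRCm38. The tool that made the counts, the annotation release, the strand setting and any filter are not given in the sources used here. All 37 columns matched a sample, and 0 columns were left without one. No 2 libraries of a group were duplicates: the most alike had a chi-square per degree of freedom of 32.07.

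Genes passing filterByExpr (15564 of 55487) were scaled by TMM (factors 0.658 to 1.365) and fitted in R 4.3.3 with edgeR 4.0.16, by robust quasi-likelihood, in 1 model of 37 libraries with the 10 groups and sex as terms (common biological coefficient of variation 0.39). Benjamini-Hochberg adjustment ran over every tested gene, and calls were made at 0.05. SE was taken as the size of the log2 change over the root of its F value, and SD is over libraries. CPM uses the TMM-scaled library size, and RPKM the exon length in GENCODE M21. Each library was left out in turn, and the other settings tried were RLE scaling, DESeq2 1.42.0, male libraries alone, no sex term, the compared groups alone, no 6 h sham livers and no count filter. Treating the 6 h sham livers as their own group was added after the data were seen.

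All 10 genes were named. Others were named, at most 4 per list and comparison, where they passed the threshold in a described comparison, or by closeness of profile. Results for some listed genes are not reported here. The members, lists and promoters shown were chosen with earlier results of these data known. The procedure was tested on simulated data over 15564 genes, in which it recovered 80% of 4-fold and 31% of 2-fold changes for KO against WT at 24 h, and 59% and 10% for the interaction at 24 h. Plots used matplotlib 3.10.9 in Python 3.11.15.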

Additional observations from a re-analysis of the deposited data

Results flagged for a closer look

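Of 50 sets of livers examined, 1 per gene and group of at least 4, 4 held a liver far from the rest. Chance gives about 1 in 20 only for independent sets of normally distributed values. The sets here share livers and hold CPM without a log, so that rate need not hold. Fasn stood at 298 CPM in KO 48 h replicate 3, while the other 3 KO livers at 48 h held 122 to 150 CPM. Thrsp stood at 47.3 CPM in WT 48 h replicate 4, while the other 3 WT livers held 13.8 to 17.7 CPM. Srebf1 stood at 276 CPM in that same WT liver, against 55.8 to 83.2 CPM in the other 3. Elovl6 stood at 296 CPM in WT sham replicate 4, against 46.3 to 112 CPM in the other 4 WT sham livers. The Thrsp response to hepatectomy differed between the genotypes at 24 h, by an interaction of 3.44 on the log2 scale.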

How the results depend on the processing

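Of the 36 calls on the 10 genes, 20 passed with any library left out, 13 under every other setting that could be run for them, and 11 under both. RLE scaling moved none of the counts of called genes by over 1.5 times. With no count filter the counts were 3 in WT at 6 h, 5 for KO against WT at 24 h, 3 in the interaction at 24 h, 2 for KO against WT at 48 h, in the interaction at 48 h and between the sexes, and 1 in KO at 6 h, in KO at 7 d, for KO against WT in sham livers and at 6 h, and in the interaction at 6 h. With the compared groups alone the count was 0 in WT at 6 h and 24 h, for KO against WT at 24 h and in the interaction at 24 h, and 3 in WT at 48 h. In male libraries alone it was 0 in WT at 6 h, 4 for KO against WT at 24 h and 0 at 48 h. For KO against WT at 24 h, 2464 of all genes were called in male libraries alone and 3442 with no count filter. The numbers of genes tested in those 2 fits are not given here. DESeq2 called 2 in WT at 6 h and 1 in the interaction at 48 h, and no sex term gave 2 in WT at 6 h. Without the 6 h sham livers the count was 2 in WT and 1 in KO at 6 h, and against the 6 h sham liver alone it was 0 in WT. The cause of these shifts was not tested.

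Thrsp, KO against WT at 24 h, kept a log2 difference of 3.44 to 3.92 over the alternatives and lost its call with the compared groups alone (adjusted p = 0.266). At 48 h it kept 2.93 to 3.41 and lost its call in male libraries alone (adjusted p = 0.243). The average of Acacb over the stages lost its call in male libraries alone (adjusted p = 0.0654). Against the 6 h sham liver alone, which is 1 library, the Srebf1 change in KO at 6 h was 1.11 with an SE of 0.86 (adjusted p = 0.838), so its sign is not settled. Without the 6 h sham livers the Srebf1 change in KO at 48 h was -0.0734 (adjusted p = 0.987). With single libraries left out it ranged from -0.0550 to 0.45 in KO at 48 h. Under the same step the Thrsp difference ranged from -0.0793 to 0.37 in sham livers and from -0.22 to 0.21 at 7 d.

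Over single libraries left out, the count was 0 to 2 in WT at 6 h, 0 to 9 in WT at 24 h, 7 to 10 in WT at 48 h, 0 to 1 in KO at 6 h, 6 to 7 in KO at 24 h and 4 to 7 in KO at 48 h. It was 1 to 4 for KO against WT at 24 h, 0 to 1 at 48 h, 2 to 3 for the average, 0 to 1 for the interactions at 24 h and 48 h and between the sexes, and 0 to 0 in the other comparisons. Over the whole table, the number of genes called in WT at 24 h was 144, with 492 in DESeq2, 1187 with no count filter, 76 without a sex term, 55 in male libraries and 0 with the compared groups alone. For KO against WT at 24 h it was 2891, with 3442 with no count filter, 2464 in male libraries and 0 with the compared groups alone. Elsewhere, each number is followed by its range over the other settings. It was 1030 (264 to 1855) in KO at 6 h, 4351 (1028 to 4883) at 24 h, 467 (262 to 828) at 48 h and 0 (0 to 155) at 7 d. It was 1223 (1 to 2943) in WT at 6 h, 1291 (301 to 2075) at 48 h and 0 (0 to 250) at 7 d. For KO against WT it was 43 (3 to 871) in sham livers, 18 (5 to 358) at 6 h, 53 (17 to 621) at 48 h, 7 (2 to 97) at 7 d and 423 (202 to 1459) on average. For the interactions it was 0 (0 to 110) at 6 h, 1319 (0 to 2361) at 24 h, 0 (0 to 401) at 48 h and 0 (0 to 67) at 7 d, and between the sexes 558 (430 to 1093). No paired analysis was possible because the labels carry no replicate numbers that groups share.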
